A study of Rattus norvegicus with 16 samples.

Results

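The genes of synaptic vesicles and membrane fusion were followed through 16 Affymetrix arrays of rat retina and pineal gland. Members were taken by name: every probe set annotated with a single gene symbol that starts with Syt, Stx, Vamp, Snap, Sv2 or Rab in the form the gene families use, together with the synapsins, Napa and its relatives, Nsf, Syp and Svop. The rule found 102 probe sets for 71 genes, out of 8740 probe sets that are not controls and 4736 genes with a symbol of their own. All 71 symbols matched RefSeq. By role, 41 probe sets belong to 28 Rab GTPases, 14 to 13 synaptotagmins, 13 to 8 syntaxins, 11 to 8 vesicle membrane and coat proteins, 7 to 4 VAMPs, 7 to 3 SNAP proteins and 4 to the disassembly factors Nsf and Napa. A further 5 probe sets, for Stxbp2, Stxbp5, Snap91, Rab11fip5 and Rab3ip, were caught by their names; their products are partners of these families and are kept apart. A probe set is a group of array probes that is read as 1 value and annotated to a gene, and 25 of the genes have several.

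Total RNA from Rattus norvegicus was hybridized to 12 retina and 4 pineal arrays. The retina has 3 arrays at each of ZT6, ZT12, CT6 and CT12, and the pineal has 1 at each. ZT, Zeitgeber time, conventionally counts hours from lights on, and CT, circadian time, counts hours of the internal clock without a light cycle; the labels describe neither the lighting, nor the strain, age or any treatment of the animals. Whether arrays of a group hold RNA of different animals is not stated, and p-values therefore measure only the spread between these arrays, which may be technical. The source name of every pineal array says retina. It reads brain, retina for the pineal ZT12 array and for the retina array numbered 3 in each of the 4 groups, and eye, retina for the others, so that in the retina the source name cannot be told apart from the number 3. The description of the pineal ZT12 array gives 6 h where its title gives 12. The titles were followed. On the tissue check, Asmt, which makes melatonin, lay between 13.29 and 13.69 log2 units on the pineal arrays and between 6.26 and 9.39 on the retina arrays, which matches the titles. The mean of the 11 listed pineal genes on the array was 12.3 to 12.7 and 8.5 to 10.6, in that order. Of these, Adrb1 went the other way (6.02 to 7.11 and 7.14 to 10.71), and Sag, Pdc, Rom1 and Slc18a1 overlapped between the tissues.

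Fusion of a vesicle with its target membrane is driven by SNARE proteins: a VAMP on the vesicle zips together with a syntaxin and a SNAP protein on the target. Several synaptotagmins sense calcium at the vesicle, Rab GTPases mark the vesicle and help it to find its target, and Nsf with alpha-SNAP (Napa) pulls spent SNARE complexes apart so that they can be used again. Photoreceptors and bipolar cells of the retina release glutamate from ribbon synapses, while pinealocytes, which descend from a photoreceptor-like lineage, secrete melatonin and have few such synapses.

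The first CT12 array was unlike the remaining retina arrays, and results it enters are given with and without it. Its median Spearman correlation with them was 0.837, against 0.944 to 0.962 for the rest, and 28.37% of its signal came from the 50 brightest probe sets. As medians over genes, this array deviated from the mean of the other 11 by 2.77 log2 units for 13 lens genes, by -3.78 for 7 rod genes and by -2.91 for 8 ganglion cell genes. The second CT12 array deviated by 2.37 for the lens genes. Lens signal was uneven within other groups too: the deviation was -3.77 on ZT6 array 2 and -4.03 on CT6 array 3. On the remaining retina arrays it lay between -0.67 and 1.38. In bulk RNA, fewer cells of a type and less RNA per cell cannot be told apart.

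Levels are given as log2 of the quantile-normalized intensity plus 16, called log2 units, so that a difference of 1 unit is a 2-fold change for bright probe sets and an understatement for dim ones. Levels of different probe sets are not set against each other. The retina fit tested 82 member probe sets for 58 genes whose mean reached the 40th percentile of all probe sets; 20 probe sets were too dim to test. Among the brightest members of each role, Sv2b, a vesicle glycoprotein, ranged from 13.03 to 15.68 on the 12 retina arrays with 1 probe set (rc_AI639484_at), synaptophysin (Syp), the classical marker of synaptic vesicles, from 10.67 to 14.88, Snap25 from 10.30 to 15.48 (AB003991_at), Napa from 13.75 to 14.39 (X89968_g_at) and Vamp2, the main vesicle SNARE of neurons, from 12.02 to 14.54 (M24105_at). Without CT12 array 1 the low ends became 14.89 for Sv2b, 13.99 for Syp, 14.48 for Snap25, 13.75 for Napa and 13.58 for Vamp2. All but Napa thus had their lowest value on that array.

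The other members that were brightest in their role are given by their means over the 12 retina arrays. These were 13.50 for Nsf, 11.84 for Syn1, 12.18 for Vamp3 and 11.15 for Vamp1, 10.12 for Snap23, 12.53, 11.74 and 10.51 for the synaptotagmins Syt4, Syt1 and Syt3, and 12.48, 11.85 and 11.35 for Stx12, Stx5 and Stx8. Among the Rabs they were 13.43 for Rab11b of recycling endosomes, 13.02 for Rab3b and 12.96 for Rab28, and among the partners 11.30 for Stxbp5, 10.92 for Rab3ip and 10.89 for Rab11fip5.

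Over the other 11 arrays the members moved little. The median distance between a member's highest and lowest array was 0.78 log2 units, against 0.87 for all 5244 probe sets tested, and 62 of 82 members (75.6%) stayed within 1 log2 unit, against 62.4% of all. With CT12 array 1 included the median distance was 1.26 for members and 1.25 for all, and 28 members (34.1%) spanned over 2 log2 units, against 24.2% of all. The narrowest members over 11 arrays were a Stx5 probe set (U87971_g_at, 0.32 log2 units), Rab4b (X78605_at, 0.38) and Rab28 (X78606_at, 0.39). The widest was Rab11a (M75153_g_at, 3.45), whose ZT12 array 1 read 7.82 while the others read 10.41 or more.

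**Figure D1:**
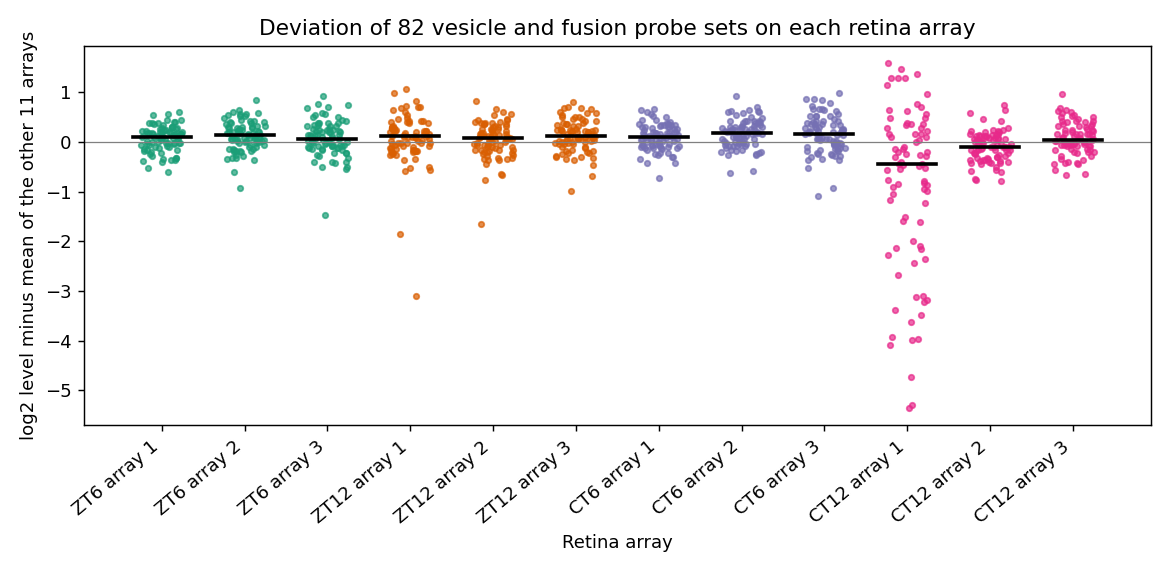
Deviation of each of the 82 tested member probe sets (points) on each of the 12 retina arrays (x axis) from its mean on the other 11 arrays (y axis, log2 units); colours mark the 4 groups and black bars the median. The median lies at -0.45 on CT12 array 1 and between -0.10 and 0.19 on the others, and 21 probe sets of CT12 array 1 lie 2 or more units below 0.

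On CT12 array 1 many members lay below the other retina arrays, Svop, Nsf, Snap25 and Snap91 among those far below. These are readings of 1 array and carry no test. The members' median deviation from the other 11 arrays was -0.45 log2 units, against -0.03 for all probe sets tested; 46 of 82 (56.1%) were below every other retina array, against 34.9% of all, and 21 (25.6%) were lower by at least 2 log2 units, against 8.12% of all. Above every other array were 14 members (17.1%), against 33.1% of all. By role, the median deviation was -3.37 for the 6 SNAP probe sets, -2.36 for the 9 vesicle proteins, -1.76 for the 4 disassembly factors, -1.49 for the 10 synaptotagmins, -0.94 for the 6 VAMPs, -0.19 for the 13 syntaxins and -0.07 for the 30 Rabs. All 9 probe sets of the vesicle proteins were below every other array.

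Svop, a transporter-like protein of the vesicle membrane, read 6.71 log2 units on CT12 array 1, 10.93 on CT12 array 2 and 11.87 to 12.50 on the other 10. Nsf, the ATPase of the disassembly step, read 8.65 with AF091834_at against 13.47 to 14.41 elsewhere, and 9.02 with AF089839_at against 12.03 to 12.68. Its adaptor Napa did not share this: X89968_at read 12.43 on CT12 array 1, inside the 11.97 to 12.57 of the other arrays. Syt1, the calcium sensor of fast release, read 8.54 against 11.40 to 12.38. The deviation was -3.22 and -3.10 for the 2 probe sets of Syt4, -3.17 for Syn2 (M27925_at), a synapsin that tethers vesicles to each other, -2.67 for Rab3a, the Rab of synaptic vesicles, and -4.08 for Snap91, a clathrin adaptor that retrieves vesicle membrane. Syn1 lay closer, at 11.13 against 11.65 to 12.13.

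Some relatives of these genes lay above the other arrays instead; the pairs that follow were chosen after their values were seen. Snap25, the SNAP of neurons, deviated by -4.72 to -3.12 log2 units with its 4 probe sets, while its widely expressed paralogue Snap23 read 10.72 with rc_AA892759_at against 8.94 to 10.09 on the other arrays; the second Snap23 probe set, AF052596_at, read 10.27, inside their 9.78 to 10.60. Vamp2 deviated by -2.14 and -2.10 with its 2 probe sets, and Vamp3 (cellubrevin), the VAMP of recycling endosomes, read 13.07 against 11.80 to 12.40. Stx3, the syntaxin of ribbon synapses, read 7.47 against 11.14 to 11.84, and Stx4, a plasma membrane syntaxin of many tissues, 10.95 against 9.04 to 10.10. Stx7, a syntaxin of late endosomes, read 12.22 against 10.10 to 11.47, and Rab13, a Rab of epithelial junctions, 11.34 against 9.64 to 10.32. Syt5, a relative of Syt1, read 11.37 against 8.68 to 10.77. Members of general membrane traffic also lay on the low side: the deviation was -1.17, -0.91 and -0.84 for the 3 probe sets of Rab11b, -0.86 for Rab14, -0.54 for Rab5b, -0.78, -0.52 and -0.19 for Stx5 and -0.57 and -0.45 for Stx12. The markers of other cells named above, lens up and rods and ganglion cells down, move with these readings, as do the 8 immune genes (a median of 0.97 above); their part in the result was not tested.

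**Figure D2:**
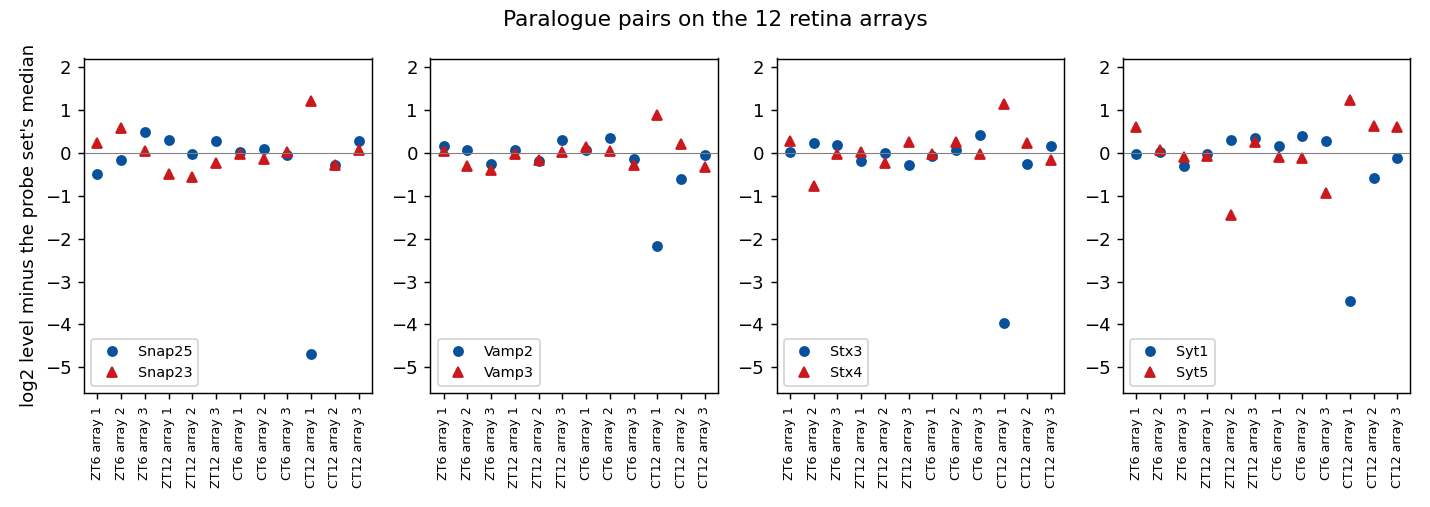
Level of 4 pairs of related genes on the 12 retina arrays (x axis), each as log2 units from the probe set's own median over the arrays (y axis); blue circles are Snap25, Vamp2, Stx3 and Syt1, and red triangles Snap23 (rc_AA892759_at), Vamp3, Stx4 and Syt5. On CT12 array 1 every circle lies below and every triangle above all other arrays, with Snap25 at 10.30 log2 units and Snap23 at 10.72 before the median is taken off.

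As examples, promoters are shown for Nsf and Vamp2, which were low on that array, and for Stx4 and Snap23, which were high, Snap23 with only 1 of its probe sets. These genes were chosen with the readings known, and a link between promoter letters and level was not tested. The 250 bases before the annotated start are printed 5′ to 3′ in the gene's direction, from RefSeq on build GRCr8, with the GC box GGGCGG and the E-box CACGTG in capitals on either strand (CCGCCC is the GC box on the other strand). They lie at chr10:89357384-89357633 on the minus strand, chr10:54292539-54292788 on the plus strand, chr3:127967636-127967885 on the plus strand and chr1:191881817-191882066 on the plus strand.
Nsf: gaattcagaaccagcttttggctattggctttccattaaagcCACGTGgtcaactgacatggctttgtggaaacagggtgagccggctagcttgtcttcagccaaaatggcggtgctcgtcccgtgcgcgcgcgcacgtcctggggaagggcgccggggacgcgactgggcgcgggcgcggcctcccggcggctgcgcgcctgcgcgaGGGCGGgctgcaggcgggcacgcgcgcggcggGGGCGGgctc
Vamp2: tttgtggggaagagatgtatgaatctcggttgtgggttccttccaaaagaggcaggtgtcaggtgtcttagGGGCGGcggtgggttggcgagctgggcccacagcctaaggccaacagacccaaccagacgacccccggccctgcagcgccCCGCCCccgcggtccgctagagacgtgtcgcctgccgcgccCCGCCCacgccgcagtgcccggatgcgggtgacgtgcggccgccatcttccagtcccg
Snap23: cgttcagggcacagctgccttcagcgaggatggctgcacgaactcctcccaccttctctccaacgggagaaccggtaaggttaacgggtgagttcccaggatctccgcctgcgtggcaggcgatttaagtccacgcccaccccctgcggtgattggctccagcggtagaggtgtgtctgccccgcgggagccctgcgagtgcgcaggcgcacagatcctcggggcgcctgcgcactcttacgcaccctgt
Stx4: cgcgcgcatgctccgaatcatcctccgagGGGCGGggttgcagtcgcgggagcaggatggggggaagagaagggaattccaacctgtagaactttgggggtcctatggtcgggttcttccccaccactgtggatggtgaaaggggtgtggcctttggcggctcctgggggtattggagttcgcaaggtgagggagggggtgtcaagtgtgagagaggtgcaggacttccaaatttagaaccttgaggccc
Nsf holds 2 GC boxes and 1 E-box, Vamp2 3 GC boxes, Stx4 1 and Snap23 0. Of the 71 member genes 59 were in the promoter table; Rab26, Rab2a, Rab38, Snap25, Snap91, Syn3, Syt10, Syt12, Syt17, Syt5, Syt7 and Vamp3 were not. The GC box was in 43 of the 59 windows (72.9%), against 53% of the 3872 promoters of genes named on the array and 32.4% of all 27457 promoters in the table. The E-box was in 7 (11.9%, against 7.77% and 5.79%), those of Napa, Nsf, Rab5a, Snap29, Stx6, Stxbp2 and Syt6. The full cyclic AMP response element TGACGTCA was in 3 (5.08%, against 2.32% and 1.7%), those of Napa, Syn1 and Vamp1, and TAATCC, the core read by the photoreceptor factors OTX and CRX, in 1, Rab3ip (1.69%, against 5.22% and 6.33%). The TATA box letters TATAAA were in 0 of the 59, against 10.9% and 13.1%. Both strands were searched and each motif was counted on its own. The letters describe these windows only.

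The design compares the hour within each regime, the regime at each hour, and the time effects of the regimes. No member passed in any of the 7 retina comparisons (limma, adjusted p under 0.05 over 5244 probe sets), with or without CT12 array 1. For ZT12 against ZT6, 0 of 82 members passed and 0.286% of all probe sets; 3 members had an unadjusted p under 0.05 (3.66%, against 8.62% of all). For CT12 against CT6, 0 members and 0.0381% of all passed, with 19 members under the unadjusted threshold (23.2%, against 27.4%). For CT6 against ZT6, 0 members and 0% of all passed, with 3 unadjusted (3.66%, against 5.07%). For CT12 against ZT12, 0 members and 0.61% of all passed, with 22 unadjusted (26.8%, against 26.2%). For hour 12 against hour 6 over both regimes, 0 members and 0.21% of all passed, with 8 unadjusted (9.76%, against 17.6%). For CT against ZT over both hours, 0 members and 0% of all passed, with 6 unadjusted (7.32%, against 11.8%). For the difference between the time effects, 0 members and 0.0191% of all passed, with 13 unadjusted (15.9%, against 16%). The members' unadjusted shares were thus below or near those of all probe sets.

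Without CT12 array 1, 84 members were tested. The share of all probe sets that passed was 1.51% for ZT12 against ZT6, 0.133% for CT12 against CT6, 0% for CT6 against ZT6, 0.61% for CT12 against ZT12, 1.3% for the hour, 0% for the regime and 0.0191% for the difference between the time effects, again with 0 members. In limma 7, 13, 12, 14, 12, 8 and 17 members had an unadjusted p under 0.05, in that order. These were 8.33%, 15.5%, 14.3%, 16.7%, 14.3%, 9.52% and 20.2% of members, against 16.1%, 19.1%, 10.4%, 19%, 17.6%, 12.9% and 17.1% of all. The share of members was above that of all for CT6 against ZT6 and for the difference between the time effects, and below it in the others. The CT12 comparisons depend on which CT12 arrays are in the fit: with CT12 array 3 left out, so that CT12 arrays 1 and 2 remain, 23 members passed for CT12 against CT6 and 18 for CT12 against ZT12, or 28% and 22% of members, against 24.9% and 20.4% of all probe sets. These 2 arrays had the most lens signal, and its part in the result was not tested.

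At CT12 more members were lower than higher. Against CT6, 54 of 82 differences were negative and 28 positive (34.1%, against 45.9% of all), with a median of -0.26 log2 units against -0.06 for all probe sets. Without CT12 array 1, 60 of 84 were negative and 24 positive (28.6%, against 44.9%), with a median of -0.14 against -0.05. The 3 CT12 arrays lay below all 3 CT6 arrays for 18 members (22%, against 15.9% of all) and above them for 3 (3.66%, against 10.6%). With CT12 array 1 set aside, the remaining CT12 arrays lay below for 20 (24.4%, against 19.6%) and above for 7 (8.54%, against 13.1%). Against ZT12 the 3 arrays lay below for 20 members (24.4%, against 16.1%) and above for 3 (3.66%, against 12.6%), and with array 1 set aside below for 21 (25.6%, against 20.1%) and above for 6 (7.32%, against 16.3%). Both comparisons share the CT12 arrays.

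Among the SNAREs, the syntaxins gave the smallest p-values at CT12. Stx1a, the syntaxin of conventional synapses, read 9.90, 10.32 and 10.35 log2 units on the CT6 arrays and 8.27, 9.34 and 9.37 on the CT12 arrays with D12519_s_at, without overlap. The difference was -1.20 ± 0.30 (SE, limma adjusted p = 0.113), and -0.84 ± 0.22 without CT12 array 1 (adjusted p = 0.119). Its other probe set, D10392_i_at, read 10.81 to 11.06 at CT6 and 10.91 to 11.13 at CT12, and its difference was 0.11 ± 0.16 (SE, limma adjusted p = 0.647), so that the 2 probe sets of Stx1a gave opposite signs.

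Stx5, the syntaxin of traffic between endoplasmic reticulum and Golgi, read 10.24, 10.33 and 10.76 at CT6 and 9.43, 9.79 and 9.74 at CT12 with U87971_at. The groups did not overlap, and the difference was -0.79 ± 0.18 (SE, limma adjusted p = 0.111; -0.68 ± 0.18 and 0.119 without array 1). With L20822_at it was -0.42 ± 0.14, and with U87971_g_at, which is named for the same source sequence as U87971_at, -0.05 ± 0.13. Stx12, a syntaxin of recycling endosomes, read 12.65, 12.86 and 12.76 at CT6 and 12.07, 12.33 and 12.10 at CT12 with AF044581_at, a difference of -0.59 ± 0.16 (SE, limma adjusted p = 0.119). None of these passed the threshold.

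For the vesicle proteins, Sv2b (rc_AI639484_at) read 15.53, 15.50 and 15.68 at CT6 and 13.03, 14.89 and 15.24 at CT12. All CT12 arrays were lower, and without array 1 the difference was -0.50 ± 0.13 (SE, limma adjusted p = 0.119). Syn2 (M27925_at) read 10.03, 9.86 and 10.18 at ZT12 and 6.53, 8.87 and 9.36 at CT12. It came nearest to passing in any retina comparison once array 1 was left out, with -0.92 ± 0.19 for CT12 against ZT12 (SE, limma adjusted p = 0.0571). Its other tested probe set (rc_AI145494_g_at) gave -0.35 ± 0.20 there. Sv2a, the widely distributed member of the Sv2 family, read 11.89, 11.57 and 11.68 at ZT12 and 10.09, 10.83 and 11.28 at CT12, -0.98 ± 0.27 with all arrays (SE, limma adjusted p = 0.108) and -0.66 ± 0.19 without array 1.

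For CT12 against CT6, Syt1 differed by -1.65 ± 0.66 log2 units with all arrays (SE) and by -0.62 ± 0.19 without array 1, and Syt4 (U14398_g_at) by -1.58 ± 0.60 and -0.65 ± 0.18. Svop differed by -2.06 ± 1.08 and then by -0.39 ± 0.36, and Nsf (AF091834_at) by -2.03 ± 1.07 and -0.31 ± 0.19. Syt5 went the other way, at 10.04, 10.02 and 9.19 for CT6 and 11.37, 10.77 and 10.75 for CT12, a difference of 1.21 ± 0.42 (SE, limma adjusted p = 0.143) and 1.01 ± 0.46 without array 1. Snap25 (AB003991_at) differed by -1.59 ± 0.99 with that array and by -0.03 ± 0.26 without it. Of these, Syt1, Syt4 and Syt5 had groups without overlap with array 1 set aside. Next to Syt5, the positive differences with the smallest p were Rab34 (0.35 ± 0.17, SE, limma adjusted p = 0.198) and Rab11a (M75153_at, 0.35 ± 0.21, adjusted p = 0.256), a Rab of recycling endosomes, whose sign turned with CT12 arrays 1 and 2 both left out (-0.14).

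**Figure D3:**
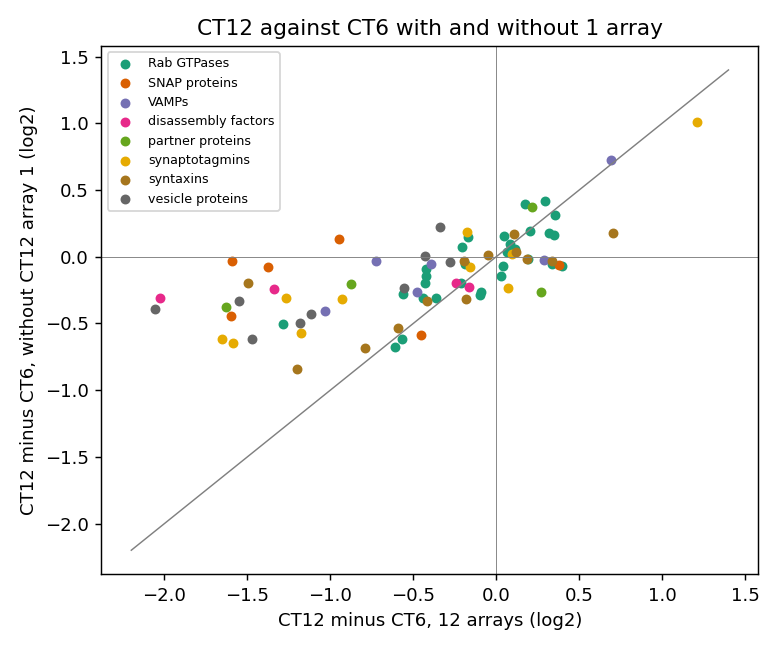
Difference CT12 minus CT6 for 82 member probe sets, with all 12 retina arrays (x axis, log2 units) and without CT12 array 1 (y axis, log2 units), coloured by role; the diagonal marks equal values. The 9 probe sets of vesicle proteins and the 4 of Snap25 lie left of the diagonal, such as Svop at -2.06 with the array and -0.39 without it.

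Under the light cycle the values nearest to the threshold belonged to other members. For ZT12 against ZT6, Snap23 (rc_AA892759_at) read 9.74, 10.09 and 9.55 at ZT6 and 9.03, 8.94 and 9.27 at ZT12, without overlap, a difference of -0.71 ± 0.32 with all arrays (SE, limma adjusted p = 0.585) and -0.72 ± 0.17 without CT12 array 1 (adjusted p = 0.0772). That array belongs to neither group. It enters through the normalization, the filter and the estimate of the spread, which the retina arrays share. Rab8b, a Rab of traffic to the plasma membrane, read 10.16, 9.78 and 9.99 at ZT6 and 9.52, 9.43 and 9.25 at ZT12, -0.58 ± 0.19 (SE, limma adjusted p = 0.361; 0.0924 without array 1). Rab7a, the Rab of late endosomes, was 0.44 ± 0.19 higher at ZT12 (SE, limma adjusted p = 0.539), Sv2a 0.56 ± 0.27 higher and Syt17 0.35 ± 0.17 higher, while Syt8 differed by -1.12 ± 0.37. The ZT12 arrays were uneven for Syt8, with deviations of -1.84, -0.76 and -0.04 from the mean of the other 11 retina arrays. Over all members the 3 ZT12 arrays lay above the ZT6 arrays for 6 (7.32%, against 10.3% of all) and below for 8 (9.76%, against 15.1%).

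Between regimes at hour 6, Rab34, a Golgi-associated Rab, read 10.80, 10.95 and 11.15 at ZT6 and 10.29, 10.12 and 10.63 at CT6, a difference of -0.62 ± 0.17 (SE, limma adjusted p = 0.827). Rab26 was 0.44 ± 0.16 higher at CT6, Napa (X89968_at) 0.36 ± 0.14 higher and Snap23 (AF052596_at) 0.41 ± 0.19 higher, while Rab8b differed by -0.34 ± 0.19 and Rab4b (X78605_at) by -0.21 ± 0.15. The CT6 arrays lay above the ZT6 arrays for 9 members (11%, against 7.95% of all) and below for 5 (6.1%, against 9.23%). For the remaining CT12 against ZT12 values, Syt8 was 1.10 ± 0.37, Syt5 1.25 ± 0.42 and Snap23 (rc_AA892759_at) 0.76 ± 0.32 higher at CT12, and Stx5 (U87971_at) differed by -0.67 ± 0.18 and Stx1a (D12519_s_at) by -1.01 ± 0.30. No adjusted p was under 0.1 among these. The Syt8 value shares the uneven ZT12 arrays given above.

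In the comparisons over both groups of arrays the nearest members also stayed above the threshold. For hour 12 against hour 6 the difference was -0.52 ± 0.16 for Rab4a, a Rab of early endosomes (SE, limma adjusted p = 0.208), -0.28 ± 0.10 (L20822_at) and -0.32 ± 0.13 (U87971_at) for Stx5, 0.32 ± 0.14 for Rab7a, 0.30 ± 0.14 for Rab3ip, an exchange factor for Rabs, and 0.58 ± 0.36 for Vamp5. In CT against ZT over both hours it was -0.61 ± 0.23 for Syn2 (rc_AI145494_g_at, SE, limma adjusted p = 0.352), -0.32 ± 0.12 for Rab34, -0.41 ± 0.18 for Rab11b (rc_AA891669_g_at), 0.28 ± 0.10 for Napa (X89968_at), 0.36 ± 0.17 for Rab5b and 0.49 ± 0.26 for Syt8. The time effect under CT minus that under ZT was -0.94 ± 0.26 for Stx5 (U87971_at), -0.76 ± 0.22 for Stx12 (AF044581_at), -1.44 ± 0.43 for Stx1a (D12519_s_at), 1.82 ± 0.60 for Syt5, 0.60 ± 0.25 for Rab34 and 1.09 ± 0.46 for Snap23 (rc_AA892759_at), with limma adjusted p of 0.204 or more.

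The genes that work beside the members were read from 5 pathway lists. In the retina, 0 of the 22 probe sets for docking, priming and calcium-triggered release passed for CT12 against CT6, with a median of -0.92 log2 units that became -0.32 without CT12 array 1 (11 of 22 and 4 of 23 with an unadjusted limma p under 0.05). All probe sets had medians of -0.06 and -0.05, with 27.4% and 19.1% under the unadjusted threshold. The medians were -0.54 and -0.21 for endocytosis, -0.76 and -0.29 for Rab regulators, -0.42 and -0.14 for vesicle filling and -0.39 and -0.21 for other SNAREs and tethers, in the same order. For ZT12 against ZT6 all 5 medians lay between -0.13 and -0.05. With all arrays, 1 listed probe set passed in the 7 comparisons, Scfd2 of the Sec1/Munc18 family, lower for CT12 against ZT12 (-1.59 ± 0.26, SE, limma adjusted p = 0.032; -1.26 ± 0.17 and 0.0169 without array 1). Without array 1, Syngr1, a vesicle membrane protein, was also lower for CT12 against CT6 (-1.28 ± 0.19, SE, limma adjusted p = 0.0459) and for the hour (-0.80 ± 0.13, adjusted p = 0.0183). There Atp6v1a, a subunit of the vesicle proton pump, was lower for CT12 against ZT12 (-0.78 ± 0.13, SE, limma adjusted p = 0.0337), and Exoc7, a subunit of the exocyst tether, for the hour (-0.44 ± 0.085, adjusted p = 0.0373). The median deviation of the docking and priming genes on CT12 array 1 was -1.86.

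Between tissues more members were lower in the pineal gland than higher. Nsf, Napa, Syt1, Syt4, Vamp2, Rab3a, Rab3b and Sv2b were lower with every probe set, and Vamp3, Stx4, Rab10, Rab6a and Rab5b were higher. Of 83 member probe sets tested with limma on all 16 arrays, 64 passed, 20 higher and 44 lower in the pineal. Of all probe sets 75.8% passed, 39.4% higher and 36.4% lower, so the members' total (77.1%) is close to the background, while 24.1% of members were higher and 53% lower. These counts include 3 members that reached the level needed for testing through their pineal values alone, Rab3c, Rab38 and a Rab4b probe set (rc_AA818114_at), and so were bound to differ; with such probe sets left out, 61 of 80 members passed (76.2%, against 75.4% of all), 17 higher and 44 lower. Of the 44 lower, 12 (27.3%, against 21.3% of all lower calls) had every pineal array under the testing floor of 8.82 log2 units. Both Nsf probe sets, Syt1 and Rab3a are among them. These reached the level needed for testing through their retina values alone, and so were bound to be lower. They remain in the 44, and the size of their difference rests on dim pineal readings. The 12 are a minimum, because every pineal array had to lie under the floor, while the 3 higher members were taken by their retina mean. Lower members with only their pineal mean under the floor were bound to be lower too, and were not counted. The lower calls of members and of all probe sets thus rest in part on the filter. The members' median was -0.93 log2 units, against 0.09 for all. Without CT12 array 1, 70 of 81 passed, 20 higher and 50 lower, against 80.9% of all (42.2% higher and 38.7% lower). With the values as deposited, 69 members passed, 19 higher and 50 lower; the median of all probe sets then moved from 0.09 to -0.23, and the share of all calls that were higher from 51.9% to 41.6%, so directions hold relative to that shift. The members' median minus that of all probe sets was -1.02 with quantile normalization and -1.06 as deposited. The pineal arrays lay below every retina array for 31 members (37.3%, against 24.4% of all) and above for 14 (16.9%, against 27.2%). The pineal has 1 array per condition, so the test rests on 4 arrays that differ in hour and regime.

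**Figure D4:**
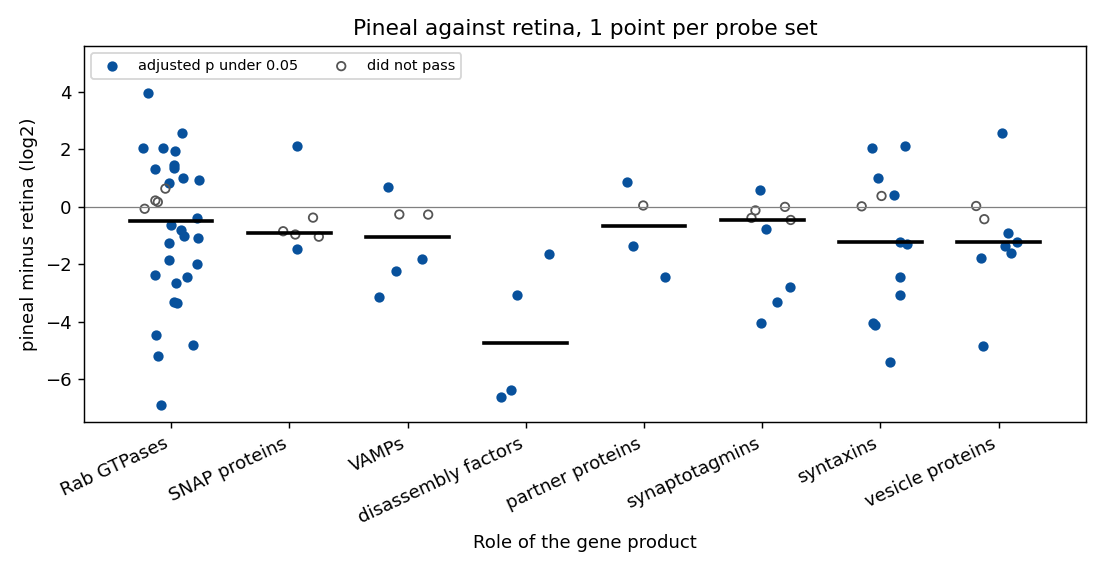
Difference pineal minus retina (y axis, log2 units) for each of the 83 member probe sets, by role (x axis); filled points passed limma's adjusted p under 0.05, open points did not, and bars are medians. All 4 probe sets of the disassembly factors are lower, while the Rabs spread from -6.89 to 3.95, the values of a Rab11b probe set that is dim in the pineal and of Rab3c, which is dim in the retina.

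Both disassembly factors were lower in the pineal with every probe set, those of Nsf from dim pineal readings. Nsf read 6.98 and 5.40 log2 units at pineal ZT6 and ZT12 and 7.69 and 7.60 at CT6 and CT12 with AF091834_at, against 8.54 to 14.46 in the retina (13.54 or more without CT12 array 1). The difference was -6.63 ± 0.80 (SE), and with AF089839_at -6.40 ± 0.48. Both Nsf probe sets were tested through their retina values alone and so were bound to be lower. Napa was lower by less, -3.06 ± 0.10 (X89968_at, SE, limma adjusted p = 7.4e-12) and -1.65 ± 0.13 (X89968_g_at, adjusted p = 3.56e-08). Its pineal arrays read 8.98 to 9.27 against 11.93 to 12.60 with X89968_at.

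Of the SNAREs, 3 of 6 VAMP probe sets and 7 of 13 syntaxin probe sets were lower, and 1 and 4 were higher. Vamp2 read 10.99, 11.01, 10.73 and 10.80 in the pineal at ZT6, ZT12, CT6 and CT12 (M24105_at), below all retina arrays (11.98 to 14.59), a difference of -3.15 ± 0.30 (SE, limma adjusted p = 3.08e-07), and -2.23 ± 0.32 with its other probe set. Vamp3 was higher, at 12.64 to 13.05 against 11.75 to 13.12 in the retina, 0.70 ± 0.19 (SE, limma adjusted p = 0.00396); the top retina value is CT12 array 1. Stx3 differed by -3.08 ± 0.56 and Stx4 by 1.00 ± 0.23. Stx6 and Stx7, syntaxins of the Golgi and of endosomes, were lower (-1.30 ± 0.19 and -1.24 ± 0.29). Stx3 and Stx6 were dim in the pineal, at 6.51 to 8.74 and 7.47 to 8.46 as deposited, below the filter of those arrays alone. Their lower calls thus rest in part on the filter. Vamp1 was lower with M24104_at (-1.82 ± 0.31) and did not pass with M24104_g_at (-0.27 ± 0.17; -0.33 ± 0.14, limma adjusted p = 0.0465, without CT12 array 1).

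Snap25 did not pass with any of its 4 probe sets on 16 arrays, where the differences lay between -1.05 and -0.38. Its pineal arrays read 13.21, 13.50, 13.86 and 13.75 at ZT6, ZT12, CT6 and CT12 (AB003991_g_at), below the retina arrays other than CT12 array 1 (14.35 to 15.11) and above that array (10.69). Without CT12 array 1 all 4 passed, with differences of -0.75, -1.16, -1.28 and -1.33 and limma adjusted p of 0.000532 at most. Svop, likewise low on that array, did not pass with it (0.02 ± 0.73) or without it (-0.41, adjusted p = 0.127).

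Among the synaptotagmins and vesicle proteins most of the called members were lower. Syt1 read 8.31, 5.72, 8.21 and 8.40 in the pineal, a difference of -4.05 ± 0.59 (SE). It was tested through its retina values alone and so was bound to be lower. Syt4 differed by -3.34 ± 0.68 and -2.78 ± 0.54 with its 2 probe sets, and Syt9 by -0.79 ± 0.31. The Syt4 probe set U14398_at and Syt9 were below the filter of the pineal arrays alone. They read 6.20 to 10.04 and 7.86 to 8.70 there as deposited, so their lower calls rest in part on the filter. Syt17 was higher by 0.57 ± 0.14, and Syt3, Syt5, Syt8 and Syt11 did not pass. Lower were Sv2b (-4.86 ± 0.31 with L10362_at and -1.24 ± 0.30 with rc_AI639484_at), Sv2a (-1.80 ± 0.19), Syn1 (-1.61 ± 0.15) and Syp (-1.38 ± 0.53, SE, limma adjusted p = 0.028; -1.66 without CT12 array 1). Sv2c did not pass with all arrays (-0.44 ± 0.29) and did without CT12 array 1 (-0.55 ± 0.23, adjusted p = 0.0388).

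Of the 32 Rab probe sets 11 were higher, 17 lower and 4 not called, while 39.4% of all probe sets were higher and 36.4% lower. The higher ones include those of Rab3c, Rab38 and Rab4b (rc_AA818114_at), tested through their pineal values alone and so bound to differ. The lower ones include Rab3a, Rab8a and a probe set each of Rab3b and Rab11b, tested through their retina values alone and likewise bound to differ. Rab3a read 8.10, 8.70, 7.28 and 8.34 in the pineal against 10.34 to 13.61 in the retina, a difference of -4.83 ± 0.44 (SE). Rab3b differed by -4.47 ± 0.19 and -1.86 ± 0.12 with its 2 probe sets. Rab3d did not pass (-0.07 ± 0.16). Rab3c and Rab38, tested through their pineal values alone, are given by level only. Rab3c (U54807_at), a close relative of Rab3a, read 12.09, 12.02, 11.96 and 12.01 in the pineal and 6.88 to 9.26 in the retina. Rab38, a Rab of pigment and lysosome-related organelles, read 11.07 to 11.33 in the pineal and 7.33 to 11.09 in the retina, the top one being CT12 array 1.

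Lower were also Rab7a (-5.20 ± 0.31 log2 units), Rab8a (-3.31 ± 0.15), Rab12 (-2.45 ± 0.14) and Rab14 (-2.36 ± 0.17). Rab7a was dim in the pineal, at 6.37 to 8.57 as deposited, below the filter of those arrays alone. Its lower call thus rests in part on the filter. Higher were Rab10 with both of its probe sets (2.05 ± 0.14 and 0.84 ± 0.14), the Golgi Rab Rab6a (1.46 ± 0.18), Rab5b (1.34 ± 0.19), Rab33b (1.00 ± 0.14) and Rab34 (0.94 ± 0.12). Smaller decreases passed for Rab8b (-1.02 ± 0.28), Rab13 (-0.81 ± 0.27), Rab1a (-0.62 ± 0.18) and Rab26 (-0.38 ± 0.13). Rab8b was below the pineal filter too, at 7.07 to 8.96 as deposited. Of the partners, Snap91 was lower (-2.46 ± 0.59), as was Stxbp5, an inhibitor that binds syntaxin (-1.37 ± 0.33), Rab11fip5 was higher (0.85 ± 0.26), and Rab3ip did not pass (0.04 ± 0.21). Snap91 was likewise below the pineal filter, at 6.70 to 8.49 as deposited.

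The tissue difference of a gene often depended on which of its probe sets was read. Of 20 member genes with several tested probe sets, 10 had all of them on 1 side of 0, and 7 (35%) had probe sets called in both directions, against 211 of 909 genes (23.2%) over the array. With probe sets tested through their pineal values alone left out, these were 6 of 19 (31.6%), against 24.2%. The gene that drops out is Rab4b, whose higher probe set was bound to differ. Probe sets tested through their retina values alone, such as the lower ones of Stx12, Snap23 and Syn2, were not left out, though bound to be lower. The lower ones of Rab5a and Stx8 were dim in the pineal too, at 7.42 to 8.56 and 5.95 to 8.64 as deposited. The counts called both ways thus rest in part on the filter. The median distance between a gene's probe sets was 2.73 log2 units, against 1.63 for all such genes. Which part of a transcript each probe set reads, and which reads the gene best, is not given in the sources used here.

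The 7 genes called both ways were Stx12 (-5.41 with AF035632_s_at and 2.05 with AF044581_at), Rab5a (-2.66 with AF072935_at and 2.04 with rc_AA800305_at), Rab4b (-3.35 with X78605_at and 1.31 with rc_AA818114_at, the probe set tested through its pineal values alone), Snap23 (-1.46 with AF052596_at and 2.12 with rc_AA892759_at), Syn2 (-0.93 with rc_AI145494_g_at and 2.57 with M27925_at), Rab11a (-1.11 with E03859cds_s_at and 1.92 with M75153_at) and Stx8 (-2.43 with AF033109_at and 0.41 with AF033109_g_at). No direction is given for these genes. Rab11b was lower with D01046_at, which read 5.81 to 6.09 in the pineal, far under the floor, and 11.98 to 13.12 in the retina, and with rc_AA891669_at, and did not pass with rc_AA891669_g_at (0.16 ± 0.18). Stx5 was lower with its U87971 probe sets (-4.13 and -4.07), both under the floor on every pineal array, and did not pass with L20822_at (0.01 ± 0.11). Stx1a was higher by 2.10 with D10392_i_at and did not pass with D12519_s_at (0.37 ± 0.25), and Rab28 was lower with rc_AA893673_s_at (-1.27) and did not pass with X78606_at (0.21 ± 0.14). The genes whose several probe sets all passed in 1 direction were Nsf, Napa, Vamp2, Sv2b, Syt4 and Rab3b, lower, and Rab10, higher.

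**Figure D5:**
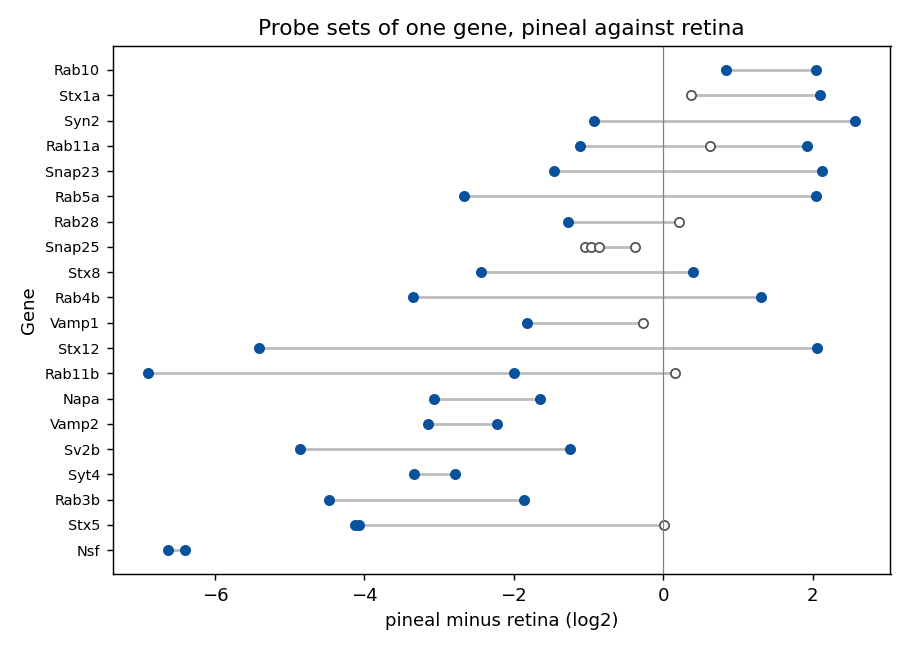
Difference pineal minus retina (x axis, log2 units) of every tested probe set of the 20 member genes that have several (y axis, 1 gene a line); filled points passed limma's adjusted p under 0.05, open points did not. Nsf, Syt4 and the Snap25 probe sets lie close together, while those of Stx12 span from -5.41 to 2.05.

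The partners of the pathway differed by list. Of 21 probe sets for docking, priming and calcium-triggered release, 2 were higher and 15 lower in the pineal, with a median of -1.64 log2 units. For vesicle filling 4 were higher and 9 lower of 19 (median -0.50), for endocytosis 10 and 13 of 28 (-0.39), for Rab regulators 2 and 4 of 8 (-0.76), and for other SNAREs, tethers and Sec1/Munc18 proteins 13 and 7 of 24 (0.49). All probe sets had 39.4% higher, 36.4% lower and a median of 0.09. Listed probe sets tested through the values of 1 tissue alone were not left out, so these counts rest in part on the filter. The mean of the 25 docking and priming genes on the array was 8.82 to 9.08 in the pineal, near the floor of 8.82. Of these genes 9 were above the floor on every pineal array and 12 on every retina array. Within single conditions the member median of pineal minus retina was -1.16 at ZT6, -1.03 at ZT12, -0.91 at CT6 and -0.27 at CT12, where CT12 array 1 is among the retina arrays; 45 members (54.2%) were lower and 20 (24.1%) higher in all 4, against 36.8% and 40.3% of all.

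The 4 pineal arrays were compared by hour as deposited, without a test. Of 63 members past the filter there, 2 (3.17%, against 1.53% of all probe sets) were at least 1 log2 unit higher at hour 12 under both regimes, and 0 were lower by that much under both (against 1.03%). Rab3ip read 9.90 at ZT6 and 11.22 at ZT12, and 9.69 at CT6 and 11.46 at CT12, differences of 1.32 and 1.77. Syt4 (U14398_g_at) read 8.66 and 9.88, and 8.59 and 10.43, differences of 1.21 and 1.84. The second Syt4 probe set (U14398_at), below the filter, was 2.55 and 2.92 higher. In the retina Rab3ip was 0.30 ± 0.14 higher at hour 12 over both regimes. Syt4 (U14398_g_at) differed there by -0.04 ± 0.60 for ZT12 against ZT6 and by the -1.58 ± 0.60 given above for CT12 against CT6, which was -0.65 ± 0.18 without CT12 array 1; none of these passed. Hour 12 minus hour 6 was -2.09 under ZT and -0.89 under CT for Vamp1 with M24104_at, and only -0.29 and -0.57 with M24104_g_at. For Syt5 it was -1.22 and 2.73. The member medians were -0.06 under ZT and 0.01 under CT, against -0.07 for all probe sets in each.

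The 20 members that were too dim for the retina tests included every probe set of 13 genes. Among them, Syn3, the synapsin of early neurons, ranged from 6.28 to 8.39 log2 units, Syt2 from 5.91 to 8.39, Syt7 from 5.67 to 8.76, Syt10 from 5.96 to 8.52, Rab2a from 5.92 to 8.62 and Snap29, a SNAP of autophagosomes and endosomes, had a mean of 8.73. On CT12 array 1 several of the dim members had their highest value, Rab38 with 11.17 (M94043_at), Rab27a, a Rab of melanosomes and secretory lysosomes, with 10.40 and Vamp5 with 10.20 (AF054826_at), while the Syn2 probe set rc_AI145494_at had its lowest, 4.99.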

How the data were processed

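Total RNA of 12 retina and 4 pineal samples was measured on 16 arrays of 8799 probe sets, of which 59 are controls. The deposited values are linear intensities that the authors scaled to a nearly equal trimmed mean, 2503 to 2506, as the values show; the summarization method is not given in the sources used here. Gene names come from the platform annotation. Intensities were quantile normalized (12 retina arrays, or all 16 for the tissue comparison) and taken as log2 of intensity plus 16; the 4 pineal arrays alone were compared as deposited. Probe sets with a mean at or above the 40th percentile were kept (5244, floor 8.88 log2 units in the retina and 8.82 over both tissues). Linear models were fitted in limma 3.58.1 (R 4.3.3) with moderated two-sided tests: 4 retina group means for 7 comparisons, or tissue plus condition, with Benjamini-Hochberg adjustment over all 5244. Errors on differences are standard errors. The number of arrays limits the precision. Procedures were tested on simulated data; tables and plots used Python 3.11.15.

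The members, lists and alternatives were chosen with earlier results of these data known. Named are all called members, the brightest of each role, the largest tissue differences, the nearest members where few passed, and genes whose probe sets disagree. Same-numbered arrays of different groups correlated between -0.413 and 0.414 over 18 pairs. Differently numbered pairs were not set beside these, so whether the title numbers pair the arrays was not decided.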

Additional observations from a re-analysis of the deposited data

Results flagged for a closer look

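Among the 64 called tissue differences, the 4 pineal arrays were checked for a value far from the others, which chance gives in about 1 in 20 such groups. Syt1 read 5.72 log2 units at pineal ZT12 and 8.21 to 8.40 on the other 3 pineal arrays. Rab33b (rc_AI639102_g_at) read 10 at pineal ZT6 and 10.30 to 10.35 on the others. In both the other 3 arrays lie on the same side of the retina median as the array that stands apart.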

How the results depend on the processing

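In the retina, 0 members were called under offsets of 1 and 64, values as deposited, no filter, a 60th percentile filter, the 6 compared arrays alone, the arrays numbered 3, whose source name differs, left out, the lens level as a covariate, and CT12 arrays 1 and 2 left out together (chosen after seeing the data). A replicate block by title number called 0 members in each of the 7 comparisons. Leaving out 1 array gave 0 to 23 for CT12 against CT6 (at most 28% of members, against 24.9% of all probe sets) and 0 to 18 for CT12 against ZT12 (22%, against 20.4%), with 0 in the other 5; the highest counts are those without CT12 array 3. Array weights gave 3 of 82 members for ZT12 against ZT6 (3.66%, against 5.32% of all), 38 for CT12 against CT6 (46.3%, against 48.1%), 0 for CT6 against ZT6 (against 0.0572%), 40 for CT12 against ZT12 (48.8%, against 49%), 17 for the hour (20.7%, against 27.3%), 13 for the regime (15.9%, against 19.7%) and 23 for the difference between the time effects (28%, against 26.1%); the weights did not converge, at 48.4 for CT12 array 2, 0.0439 for array 1 and 0.233 for array 3, so the CT12 mean is nearly 1 array there. Rab11a (M75153_at) at CT12 against CT6 turned from 0.35 to -0.14 (limma adjusted p = 0.835) with CT12 arrays 1 and 2 left out. For the tissues, the 60th percentile filter left 54 members, of which 42 were called (77.8%, against 79.1% of all), with a median of -1.24; leaving out 1 array gave 60 to 70 (72.3% to 86.4%, against 70.5% to 80.9%). The median was -1.29 as deposited. Of the 64 calls 58 held under every setting in which they were tested; Stx8 (AF033109_g_at), Syt17, Syp, Syt9, Rab26 and Rab13 were lost in some. The causes of these changes were not tested beyond the smaller number of members under the stricter filter.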
